A study of Saccharomyces cerevisiae with 24 samples.

Results

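The htz1Δswc5Δ strain of budding yeast lacks the histone variant Htz1 and the Swc5 protein, and its transcript levels were compared with those of the wild type. The comparison took the 3 arrays labelled htz1Δswc5Δ and the 3 labelled wt, which is 6 of the 24 arrays in the series, each from a separate culture grown in supplemented minimal medium to mid-log phase. The wild type was BY4741, a MATa laboratory strain with the genotype his3Δ1 leu2Δ0 ura3Δ0 met15Δ0. The htz1Δswc5Δ strain, BYh1s5-4C, carried the same 4 marker alleles, the 2 deletions made with the kanMX4 cassette, and lys2Δ0, so that it also lacked LYS2, a gene of lysine synthesis. For direct comparison, 3 arrays each of htz1Δ, htz1Δswr1Δ and htz1Δswc2Δ entered the same fit. All were MATa with the same 4 markers. The htz1Δ strain, BYh1b1-6A, in addition carried bar1Δ::hyg, and none of these 3 strains carried lys2Δ0. Each genotype was 1 strain isolate, so the named deletions and any other difference of an isolate cannot be told apart.

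Htz1 is the yeast form of histone H2A.Z, which takes the place of H2A in nucleosomes beside many promoters and near the borders of silent chromatin. The SWR1 complex puts it there: Swr1 is the ATPase, Swc2 (encoded by VPS72) binds Htz1 and DNA, and Swc5 is needed for the exchange of the histone dimers. A cell without Htz1 and Swc5 has neither the variant nor a complex able to exchange it. The comparison with wild type therefore asks which transcripts differ once both are gone, and the comparisons with htz1Δ, htz1Δswr1Δ and htz1Δswc2Δ ask whether the missing subunit, or its identity, goes with a further difference.

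Levels are given as log2 expression values, so that a difference of 1 is a 2-fold change. Of the 10928 probe sets, 5498 stood for 1 budding yeast gene and were tested. Their median level was 9.74, and probe sets for other species gave a background whose 95th percentile was 3.74. The medians of the wild-type arrays lay between 9.71 and 9.75 and those of the htz1Δswc5Δ arrays between 9.73 and 9.77. The median SD of a probe set over 3 arrays was 0.0787 in the wild type and 0.117 in htz1Δswc5Δ, so the mutant cultures varied more among themselves.

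The deleted genes matched the labels. HTZ1 read 10.30, 10.13 and 10.14 in the wild type and 2.83, 2.82 and 2.86 in htz1Δswc5Δ. SWC5 read 7.93, 7.69 and 7.88 against 2.50, 2.99 and 2.67. Both were below the background limit on every mutant array, so the change was at least 87.2-fold for HTZ1 (adjusted p = 2.3e-15) and at least 17-fold for SWC5 (adjusted p = 4.6e-12). LYS2 fell from 10.61, 10.67 and 10.73 to 3.37, 3.94 and 2.95 (adjusted p = 2.3e-08). The a-specific markers were high in both strains: the a-factor genes MFA1 and MFA2 lay above 12 on all 6 arrays. The α-factor receptor gene STE2 lay between 12.85 and 13.27. The α-specific markers were mixed. The α-factor gene MF(ALPHA)1 lay between 3.96 and 4.70. STE3, the a-factor receptor gene, read 7.71, 7.78 and 7.68 in the wild type and 5.10, 5.04 and 5.39 in htz1Δswc5Δ. SAG1, the α-agglutinin gene, also lay above the background limit on all 6 arrays.

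The wild type and htz1Δswc5Δ differed at many genes by small amounts and at few by more than 2-fold. At an adjusted p under 0.05 with a change above 2-fold, 39 probe sets (0.709% of those tested) were up-regulated in htz1Δswc5Δ and 82 (1.49%) were down-regulated, the 3 deleted genes among the latter. At 1.5-fold the counts were 178 (3.24%) and 301 (5.47%), and at any fold 1037 (18.9%) and 1098 (20%). The arrays of the 2 strains did not overlap for 38 of the 39 up-regulated and for all 82 down-regulated probe sets, where 48.5% of all tested probe sets did not overlap. The direction went with the level of the gene, taken as the mean over the 15 arrays of the fit. That mean takes in the mutant arrays, so a decrease in the mutants itself lowers the level. The link between direction and level is therefore partly built in. Of the probe sets with a mean level between 4 and 6, 5 were up-regulated and 41 down-regulated, and of those above 8, 26 were up-regulated and 12 down-regulated. When the values of the 15 arrays were quantile-normalized again, the split moved from 39 up and 82 down to 54 up and 65 down. Without htz1Δswc5Δ replicate 2, 25 probe sets were up-regulated and 88 down-regulated.

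**Figure D1:**
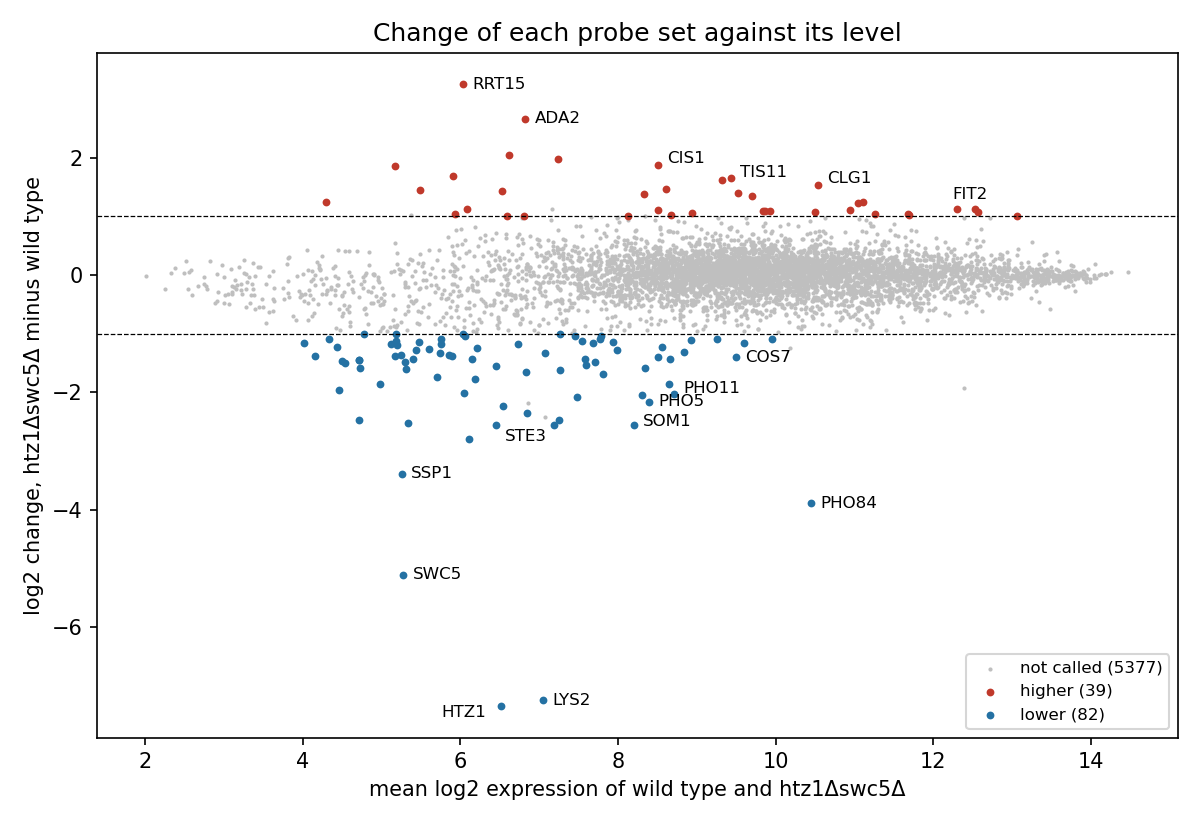
Difference in log2 expression between htz1Δswc5Δ and wild type (vertical axis) against the mean log2 expression of the 2 strains (horizontal axis), 1 point per probe set; red and blue points passed the adjusted p threshold and changed by more than 2-fold, and the dashed lines mark 2-fold. By mean level over all arrays of the fit, which is not the level plotted here, 41 of the 82 down-regulated probe sets were between 4 and 6. By that same level, 26 of the 39 up-regulated ones were above 8.

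The highest change was that of RRT15, a small gene named for an effect on ribosomal DNA transcription. It read 3.73, 4.49 and 5.0 in the wild type and 7.66, 7.74 and 7.59 in htz1Δswc5Δ, a 9.54-fold rise (log2 change 3.25 ± 0.23 SE, n = 3 each, adjusted p = 7.1e-07). ADA2, whose product belongs to the SAGA and ADA histone acetyltransferases, rose from 5.09, 5.90 and 5.49 to 8.48, 8.36 and 7.63 (log2 change 2.66, adjusted p = 2.3e-06). In both genes the mutant arrays stood well clear of the wild-type arrays. YKR041W, of unknown function, went from 5.56, 5.62 and 5.61 to 7.44, 7.51 and 7.98 (log2 change 2.05). YGR109W-A, which encodes the Gag protein of a Ty3 retrotransposon, went from 6.13, 6.55 and 6.05 to 8.13, 8.33 and 8.22 (log2 change 1.98). Ty elements exist in several near-identical copies, and the probes cannot tell them apart. The Ty1 genes YAR009C and YAR010C also rose, by 1.09 and 1.01.

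Several up-regulated genes had narrow ranges in both strains. SRO9, an RNA-binding protein of the La family, rose from 8.35, 8.56 and 8.61 to 10.14, 10.24 and 10 (log2 change 1.62, adjusted p = 8.7e-08). CLG1, a cyclin-like partner of the Pho85 kinase, rose from 9.64, 9.77 and 9.87 to 11.11, 11.42 and 11.37 (log2 change 1.54, adjusted p = 7.1e-08). HCM1, a forkhead transcription factor of S phase, rose from 7.74, 7.88 and 8.00 to 9.32, 9.34 and 9.37 (log2 change 1.47, adjusted p = 2.3e-06). These 3 genes lay far above the background limit. HCM1 in both strains and SRO9 in the wild type lay below the median of 9.74 over the tested probe sets. TOP3, the topoisomerase that works with the Sgs1 helicase in recombination, read 5.60, 5.84 and 6.02 in the wild type and 7.16, 7.30 and 7.29 in the mutant (log2 change 1.43, adjusted p = 3.4e-05). MPT5, a Puf-family regulator of mRNA stability, changed by 1.34, and BRE5, the cofactor of a ubiquitin protease, by 1.09, with adjusted p of 1.6e-07 and 8.5e-06.

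Other up-regulated genes varied between cultures. DAN1, a cell wall mannoprotein made in the absence of oxygen, read 4.68, 4.19 and 3.86 in the wild type and 5.38, 7.11 and 5.78 in htz1Δswc5Δ (log2 change 1.85, adjusted p = 0.0015). YMR317W, of unknown function, read 5.24, 4.96 and 4.08 against 5.80, 5.96 and 6.87 (log2 change 1.45, adjusted p = 0.005). CIS1, a small gene of the multidrug response, read 7.86, 7.61 and 7.21 against 9.36, 9.48 and 9.49 (log2 change 1.88 ± 0.46, adjusted p = 0.0059). Its SE was large beside its array spread in these 2 strains because the fit pools all 5 strains, and CIS1 varied among the htz1Δswc2Δ cultures (7.33, 7.63 and 9.80).

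The lowest change among genes that the mutant still carries was that of PHO84, the high-affinity phosphate transporter. It read 13.10, 11.83 and 12.26 in the wild type and 8.36, 7.37 and 9.80 in htz1Δswc5Δ, a 14.8-fold decrease (log2 change -3.89 ± 0.63 SE, adjusted p = 0.00044). The mutant cultures differed from each other by more than 2 log2 units and still did not reach the wild type. RNA came from whole cultures, so that a lower level in every cell and a loss of expression in some of the cells cannot be told apart. SPL2, an inhibitor of low-affinity phosphate uptake, read 8.96, 7.36 and 7.77 against 5.44, 5.30 and 6.27 (log2 change -2.36). PHO5, the repressible acid phosphatase, read 9.94, 9.13 and 9.35 against 7.39, 7.07 and 7.49 (log2 change -2.16, adjusted p = 3.8e-06).

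Genes of the sexual cycle and of mating were also among the lowest. SSP1, needed to shape the spore membrane in meiosis, read 6.84, 6.92 and 7.10 in the wild type and 3.52, 3.41 and 3.76 in the mutant (log2 change -3.39, adjusted p = 4.6e-08). STE3, the receptor for a-factor in α cells, read 7.71, 7.78 and 7.68 against 5.10, 5.04 and 5.39 (log2 change -2.55, adjusted p = 1.8e-05). Both genes serve other cell types than these MATa haploids, and their wild-type levels lay below the median of the tested probe sets. For SSP1, 1 of the 3 mutant arrays was above the background limit of 3.74, so the size of its decrease is limited by the background. SOM1, a subunit of the inner membrane peptidase of mitochondria, fell from 9.46, 9.38 and 9.58 to 7.02, 7.03 and 6.72 (log2 change -2.55, adjusted p = 1.1e-07).

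The remaining genes of the lowest 12 lay near chromosome ends. SOR2, a sorbitol dehydrogenase homologue, read 7.91, 7.75 and 6.87 in the wild type and 4.71, 4.66 and 4.80 in htz1Δswc5Δ (log2 change -2.79). SEO1, a putative permease on the left arm of chromosome I, read 6.68, 6.71 and 6.41 against 3.56, 4.27 and 4.43 (log2 change -2.52). MST28 and PRM9, membrane proteins of the DUP240 family that are neighbours on the right arm of chromosome I, changed by -2.55 and -2.47. A second probe set for MST28 gave -2.05, and members of this family resemble each other. YER187W, of unknown function, changed by -2.23. YIR042C, also of unknown function, lay below the background limit on all 3 mutant arrays (3.52, 3.37 and 3.53), so its decrease was at least 4.61-fold. All 24 genes of these highest and lowest sets kept an adjusted p under 0.05 when any 1 array of either strain was left out.

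**Figure D2:**
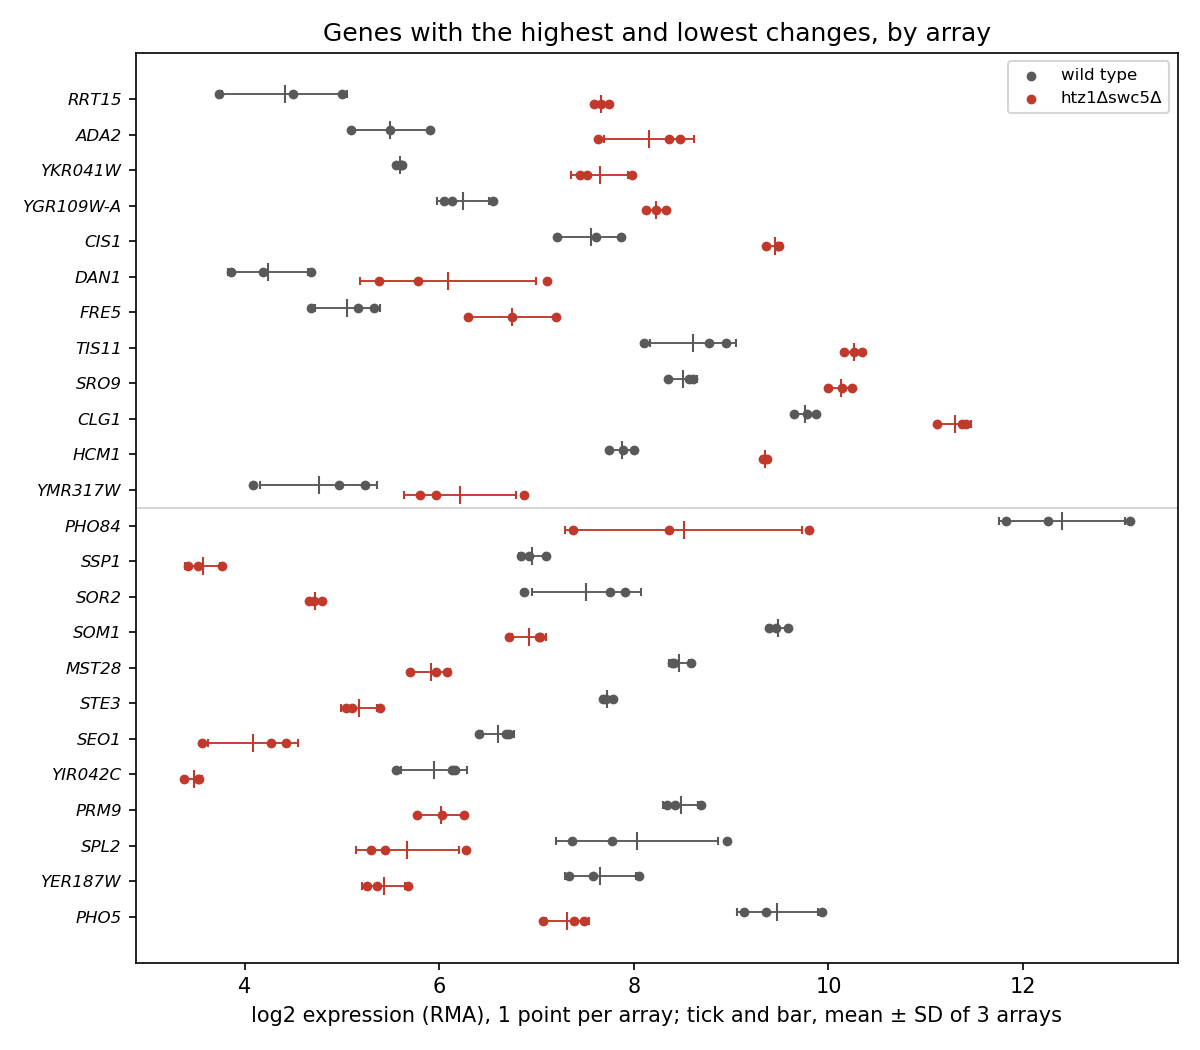
Log2 expression (horizontal axis) of the 12 genes with the highest and the 12 with the lowest change among those called, deleted genes left out; each point is 1 array of wild type (grey) or htz1Δswc5Δ (red), and the tick and bar give the mean ± SD of 3 arrays. The points of the 2 strains do not overlap for any of the 24 genes, which were chosen by their change on these same arrays. Of all tested probe sets, 48.5% did not overlap. PHO84, DAN1 and SPL2 spread more than the others.

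Genes that respond to phosphate shortage went down together. In yeast the Pho4 factor switches on transporters, phosphatases and polyphosphate synthesis when phosphate is low. Of 17 such genes measured, 12 fell, 6 of them by more than 2-fold, and none rose, where 20% of all probe sets fell. Their median change was -0.62 against 0.01 for all tested probe sets. PHO11, an acid phosphatase close in sequence to PHO12, read 10.51, 9.34 and 9.33 in the wild type and 7.54, 7.82 and 7.72 in htz1Δswc5Δ (log2 change -2.03, adjusted p = 5.8e-05). PHM6 changed by -1.75 and GIT1, a glycerophosphoinositol transporter, by -1.45. The sodium-phosphate cotransporter gene PHO89 changed by -0.95, the vacuolar phosphatase gene PHO8 by -0.75 and PHO81, the inhibitor of the Pho85 kinase, by -0.62. PHO4 itself, which is not on the list, read 10.38, 10.26 and 10.30 against 10.21, 10.18 and 10.17, a change of -0.13 that did not pass the test (95% interval -0.31 to 0.05). The mean level of the 17 genes was 9.77, 9.34 and 9.37 on the wild-type arrays and 8.43, 8.34 and 8.54 on the mutant arrays.

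Genes for iron uptake went the other way. Aft1 and Aft2 switch them on when iron is short: cell wall proteins that hold iron-siderophore complexes (FIT1, FIT2, FIT3), siderophore transporters (ARN1, ARN2, SIT1, ENB1), surface reductases (FRE1 to FRE6), the Fet3-Ftr1 uptake pair, and TIS11, which speeds the decay of mRNAs for iron-using proteins. Of 24 genes measured, 16 rose, 7 of them by more than 2-fold, and none fell, where 18.9% of all probe sets rose. Their median change was 0.54. TIS11 read 8.94, 8.10 and 8.77 in the wild type and 10.27, 10.35 and 10.16 in htz1Δswc5Δ (log2 change 1.65, adjusted p = 0.0046). FRE5 read 5.32, 5.16 and 4.68 against 6.30, 7.20 and 6.75 (log2 change 1.69, adjusted p = 0.0051). In both genes every mutant array lay above every wild-type array. FIT1 changed by 1.37, ARN1 by 1.25, ARN2 by 1.23, FIT2 by 1.13 and FIT3 by 1.07. FET3 and FTR1 changed by 0.36 and 0.30 and did not pass the test, and ENB1 changed by 0.24 (95% interval -0.36 to 0.84). ATX1, the copper chaperone that serves the Fet3 pathway, and LSO1, a small gene known to respond to iron shortage, were among the other genes called, at 1.03 and 1.13; they were picked out after their values were seen.

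The iron genes varied between cultures of other strains as well. Their mean level was 9.82, 9.51 and 9.79 on the wild-type arrays and 10.27, 10.39 and 10.43 on the htz1Δswc5Δ arrays, which did not overlap. On the htz1Δswc2Δ arrays it was 9.48, 9.50 and 10.30, so that replicate 3 of that strain lay with htz1Δswc5Δ and the other 2 lay at the lower edge of the wild type. That culture read 4.22 for VPS72, the gene deleted in it, and 8.09 for SWC5, as its label says. Without wild-type replicate 2, whose iron genes were lowest, 12 of the 24 genes rose.

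**Figure D3:**
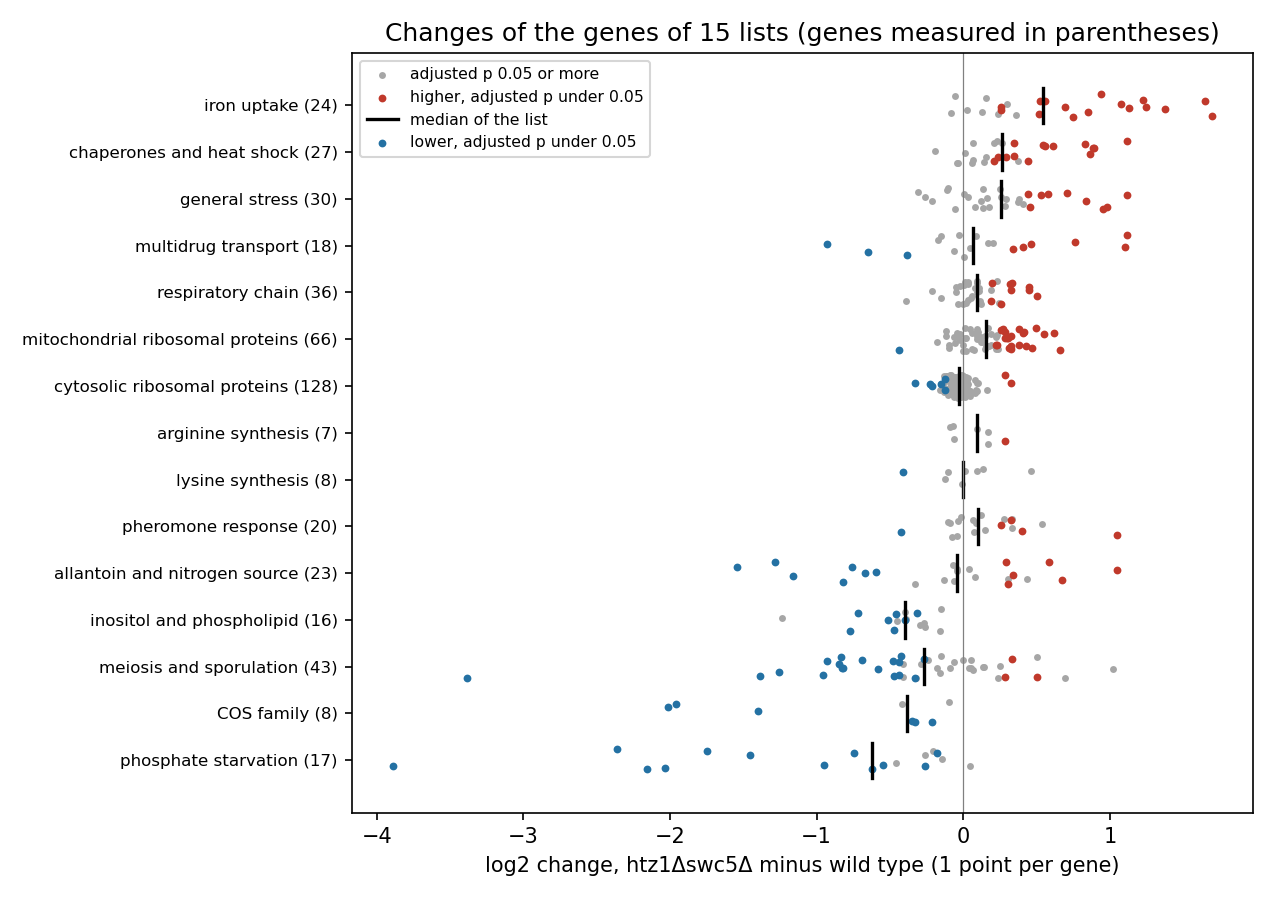
Log2 change between htz1Δswc5Δ and wild type (horizontal axis) of the genes of 15 lists, 1 point per gene, red and blue where the adjusted p was under 0.05, with a bar at the median of each list. The 24 iron uptake genes lie mostly to the right of 0 and the 17 phosphate genes mostly to the left, while arginine and lysine synthesis genes lie around 0.

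Genes of meiosis and sporulation were mostly lower where they changed. Of 43 measured, 18 fell and 3 rose, with a median of -0.27, where 20% of all probe sets fell and 18.9% rose. SPO1, a phospholipase homologue of sporulation, fell by 1.39, HOP1, a component of the meiotic chromosome axis, by 1.26 and the meiotic cohesin REC8 by 0.95. HOP1 read 6.28, 6.40 and 6.01 in the wild type and 5.01, 4.97 and 4.92 in the mutant. Their mean level over the list was 5.94, 6.00 and 5.99 against 5.61, 5.64 and 5.76. These are dim genes, and their direction moved with the scaling: after quantile normalization 8 rose and 11 fell, and when the dimmest 25% of probe sets were left out, 3 of the 43 stayed and 1 of them fell. Without wild-type replicate 2, 13 fell and 1 rose. The master regulators IME1 and NDT80 changed by 0.06 and 0.07 and did not pass the test.

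Stress and chaperone genes were higher where they changed. Of 27 chaperone and heat shock genes 14 rose and none fell (median 0.27), and of 30 general stress genes 9 rose and none fell (median 0.26), where 18.9% of all probe sets rose and 20% fell. HSP26, a small heat shock protein on both lists, read 12.16, 11.83 and 11.90 in the wild type and 13.01, 13.42 and 12.81 in htz1Δswc5Δ (log2 change 1.12, adjusted p = 0.00034). HSP104, the disaggregase, read 11.44, 11.07 and 10.69 against 11.83, 12.45 and 11.51 (log2 change 0.87), and HSP42 changed by 0.89 and HSP78 by 0.88. DDR2 and SIP18, which respond to several stresses, changed by 0.95 and 0.98. The counts leaned on single arrays. Without wild-type replicate 3, 9 chaperone genes and 4 general stress genes rose, and 4 general stress genes rose without wild-type replicate 2. Leaving out mutant replicate 1 or 2 gave 5 general stress genes. HSP42 did not pass without wild-type replicate 3 or without mutant replicate 2.

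Nitrogen genes split in direction. Of 23 measured, 6 rose and 7 fell, where 18.9% of all probe sets rose and 20% fell. DAL1 and DCG1, which lie in the allantoin gene cluster near the right end of chromosome IX but not side by side, both fell. DCG1 went from 8.39, 8.30 and 8.42 to 6.98, 6.76 and 6.75 (log2 change -1.54, adjusted p = 2.5e-08) and DAL1 fell by 1.28. The general amino acid permease GAP1 read 10.58, 9.98 and 9.96 against 9.08, 8.98 and 8.98 (log2 change -1.16). The arginine breakdown enzymes CAR2 and CAR1 rose. CAR2 went from 11.03, 10.70 and 10.50 to 11.72, 11.94 and 11.71 (log2 change 1.05, adjusted p = 0.00016), and CAR1 changed by 0.58.

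Amino acid synthesis was near the wild type. Of 7 arginine synthesis genes only ARG2 rose, by 0.28, a call lost whenever 1 array was left out, and none fell. ARG3, the ornithine carbamoyltransferase, changed by -0.09. Of 8 lysine synthesis genes other than LYS2, LYS5 fell by 0.41 and none rose, although the strain cannot make lysine. Their mean level was 10.32, 10.25 and 10.16 on the wild-type arrays and 10.21, 10.37 and 10.17 on the mutant arrays. Of 35 genes for the other amino acids 7 rose and none fell, where 18.9% of all probe sets rose and 20% fell. SER3 was the highest at 0.60 and the pentafunctional ARO1 was at 0.46. Without wild-type replicate 1 or 2, 4 of the 35 rose. Of 26 genes of sulfate assimilation and methionine, 3 rose and 2 fell.

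Genes for phospholipid synthesis under Ino2 and Ino4 were lower where they changed, with large differences between mutant cultures. Of 16 measured, 7 fell and none rose, where 20% of all probe sets fell and 18.9% rose. INO1, the inositol synthase and the most responsive gene of this group, read 10.75, 10.57 and 11.06 in the wild type and 11.31, 7.79 and 9.58 in htz1Δswc5Δ, and its change of -1.24 did not pass the test (95% interval -2.96 to 0.49). Mutant replicate 1 lay above all wild-type arrays and replicate 2 far below them. EPT1, an aminoalcohol transferase, changed by -0.77, PSD1, the mitochondrial phosphatidylserine decarboxylase, by -0.72 and OPI1, the repressor of the group, by -0.51. Without mutant replicate 2, 1 of the 16 genes fell, and without mutant replicate 1, 12 fell; without wild-type replicate 2 or 3 the counts were 3 and 2.

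Among the chromatin complexes, a few genes changed clearly by under 2-fold. The counts given for them stand beside 18.9% of all probe sets that rose and 20% that fell. SWR1 itself rose from 9.18, 9.02 and 9.23 to 10.11, 10.16 and 10.07 (log2 change 0.97, adjusted p = 0.00039). BDF1, a bromodomain subunit of the complex, changed by 0.89 (adjusted p = 3.9e-07) and the actin-related subunit gene ARP6 by -0.43. Of the 14 SWR1 complex genes, 3 rose and 2 fell, SWC5 among the latter. In the NuA4 acetyltransferase, EPL1 rose from 8.72, 8.78 and 8.83 to 9.64, 9.81 and 9.82 (log2 change 0.98, adjusted p = 4.9e-06) and the scaffold EAF1 changed by 0.46. In the related INO80 remodeller 4 of 11 genes rose and 1 fell, ARP5 the highest at 0.43, and without mutant replicate 1 only 1 of them rose. In SAGA, apart from ADA2, SGF29 and NGG1 rose by 0.53 and 0.39 and GCN5, the catalytic subunit, fell by 0.35. SAS5, a subunit of the histone acetyltransferase that limits the spread of silencing, fell from 9.49, 9.57 and 9.55 to 8.63, 8.60 and 8.79 (log2 change -0.86, adjusted p = 1.1e-05), while the silencing and telomere factors ABF1, RIF1 and RAP1 rose by 0.51, 0.47 and 0.45. Of 9 histone genes HTB2, HHO1 and HHT2 rose, by 0.34, 0.24 and 0.15, and none fell.

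Genes of the DNA damage response were slightly higher where they changed. Of 17 measured, 8 rose and 2 fell, where 18.9% of all probe sets rose and 20% fell, and without wild-type replicate 2 none fell. RNR1, the large subunit of ribonucleotide reductase, rose from 11.41, 11.20 and 11.57 to 12.13, 12.29 and 12.03 (log2 change 0.76, adjusted p = 0.00086). HUG1, an inhibitor of the same enzyme, changed by 0.93 and did not pass without wild-type replicate 3, and MRC1, the checkpoint mediator at replication forks, changed by 0.58. Of 17 genes of homologous recombination 3 rose and 1 fell: TOP3, its partner RMI1 at 0.36, MMS4 at 0.33 and RAD55 at -0.54. The 3 of 17 are near the 18.9% of all probe sets that rose. The count was 8 after quantile normalization and 5 without mutant replicate 3.

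Of 18 multidrug transport genes 6 rose and 3 fell, where 18.9% of all probe sets rose and 20% fell. The number that rose was 4 in every fit that left out 1 array. PDR15, a plasma membrane ABC transporter, read 10.78, 10.22 and 10.16 in the wild type and 11.44, 11.77 and 11.30 in htz1Δswc5Δ (log2 change 1.11, adjusted p = 0.0088). RSB1, a sphingoid base translocator, changed by 1.10 (adjusted p = 0.035) and did not pass when any 1 of the 6 arrays was left out. PDR3, a transcription factor of the group, changed by 0.76 and the polyamine transporter TPO4 by -0.93. PDR11, which encodes a sterol transporter of the ABC family and was picked out after its value was seen, fell from 8.46, 8.61 and 8.48 to 6.34, 6.52 and 6.46 (log2 change -2.07, adjusted p = 1.6e-06).

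The large growth programmes moved little in size. Their counts stand beside 18.9% of all probe sets that rose and 20% that fell. Of 128 genes taken by their names as cytosolic ribosomal protein genes 2 rose and 6 fell (median -0.03), where leaving out 1 array gave 2 to 12 that fell. Among the 6 was RPP1, at -0.33, which encodes a subunit of RNase P and not a ribosomal protein. Of 50 ribosome biogenesis genes 14 rose and none fell (median 0.14), with the pseudouridine synthase CBF5 the highest at 0.55. Of 66 mitochondrial ribosomal protein genes 22 rose and 1 fell (median 0.16). Of 36 respiratory chain genes 9 rose and none fell, among them the ATP synthase subunits ATP1 and ATP2 at 0.45 and 0.50. IDH1, a subunit of the citrate cycle enzyme isocitrate dehydrogenase, was the one gene of central metabolism named here above 2-fold, from 11.13, 11.19 and 11.21 to 12.17, 12.58 and 11.85, and was picked out after its values were seen. Of 33 proteasome genes 2 rose and 6 fell, and of 16 purine synthesis genes 1 rose and none fell, while 5 rose without mutant replicate 3.

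Of the trehalose and glycogen genes, 17 in number, 3 rose and none fell, and leaving out 1 array gave 1 to 7. These counts and the next ones stand beside 18.9% of all probe sets that rose and 20% that fell. Of 15 hexose transporter genes 1 rose and 3 fell, among them SNF3, a glucose sensor, from 8.18, 8.51 and 8.27 to 7.15, 7.34 and 7.20 (log2 change -1.09), while HXT5 changed by 0.74 and did not pass without wild-type replicate 2 or 3 or mutant replicate 2. Of 6 galactose genes GAL10, GAL7 and GAL2 fell, by 0.93, 0.87 and 0.42, all of them dim, and after quantile normalization 1 of them passed. Of 5 aryl alcohol dehydrogenase genes of the AAD family 1 rose and 1 fell.

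Among the mating genes on the lists below, only STE3 and PRM6 were called at 2-fold. Of 20 pheromone response genes 4 rose and 1 fell, where 18.9% of all probe sets rose and 20% fell. Without wild-type replicate 1 only 1 rose, and without wild-type replicate 3 or mutant replicate 2 the count was 2. PRM6 changed by 1.05 and did not pass without wild-type replicate 1 or mutant replicate 2, and the G protein subunit gene GPA1 changed by -0.43. FUS1, a fusion protein of mating cells, read 9.68, 9.93 and 9.68 in the wild type and 9.43, 9.95 and 9.68 in the mutant. Of 7 a-specific genes BAR1, STE6 and STE2 fell, by 0.59, 0.30 and 0.22. Of 4 α-specific genes STE3 and MF(ALPHA)1 fell while SAG1, the α-agglutinin gene, and MF(ALPHA)2 rose: SAG1 read 8.19, 8.39 and 8.27 in the wild type and 9.03, 9.02 and 9.03 in the mutant (log2 change 0.74, adjusted p = 0.00025). Of 8 haploid-specific genes 1 rose and 2 fell. BAR1, the protease that degrades α-factor, read 12.22, 12.28 and 12.22 against 11.55, 11.67 and 11.72.

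A larger share of the genes near chromosome ends than of the others was down-regulated, given here as counts with no test of the shares. Silent chromatin at yeast telomeres reaches inward through the Sir proteins, and Htz1 is known to limit it. The 15 outermost protein-coding genes of each chromosome arm gave 390 probe sets, of which 36 (9.23%) were down-regulated by more than 2-fold and 8 (2.05%) up-regulated. Of the 5105 others, 46 (0.901%) were down-regulated and 31 (0.607%) up-regulated. The share fell with distance: it was 19% (20 of 105) in the outermost 5 places, 8.45% (12 of 142) in places 6 to 10 and 2.8% (4 of 143) in places 11 to 15. Genes near the ends are dimmer, and dim genes were called down more often, so the share was also taken by mean level over the 15 arrays. That level takes in the mutant arrays and is itself lowered by a decrease, so it does not fully separate dimness from place. With a mean level above 8 it was 2.53% (5 of 198) near the ends and 0.16% (7 of 4379) elsewhere. Between 6 and 8 it was 14.3% (13 of 91) against 2.76% (13 of 471), and below 6 it was 17.8% (18 of 101) against 10.2% (26 of 255).

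The down-regulated genes near the ends lay on 17 of the 32 arms, several of them side by side. On chromosome I, SEO1, YAL064W, PAU8 and YAL063C-A were called on the left and PHO11, PRM9 and MST28 on the right. On the left arm of chromosome IV these were SOR2, COS7, THI13 and YDL241W, on its right arm FDC1, IRC4 and YDR541C, on the right arm of chromosome III GIT1, YCR101C and YCR099C, and on the right arm of chromosome IX DCG1, DAL1 and YIR042C. COS7, a member of a family of subtelomeric membrane proteins, read 10.18, 10.37 and 10.04 in the wild type and 8.69, 8.88 and 8.81 in htz1Δswc5Δ (log2 change -1.40, adjusted p = 2.9e-05). Of 8 COS genes measured, 6 fell and none rose, where 20% of all probe sets fell and 18.9% rose at any fold. COS12 read 7.03, 4.47 and 4.81 against values below the background limit, a decrease of at least 3.23-fold, with wild-type replicate 1 far above the other 2. Without that array the decrease was at least 1.86-fold. The PAU genes, anaerobic cell wall proteins, contributed PAU4, PAU8, PAU14, PAU18 and PAU21, which changed by -1.43 to -1.58; their close sequences make each single value uncertain. PAU4 is the only one of these 5 on the list of PAU, DAN and TIR cell wall proteins. Of 14 genes measured on that list 3 rose and 4 fell, TIR2 changing by 0.76 and DAN4 by -0.45. PHO84, PHO11 and GIT1 count both here and among the phosphate genes.

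**Figure D4:**
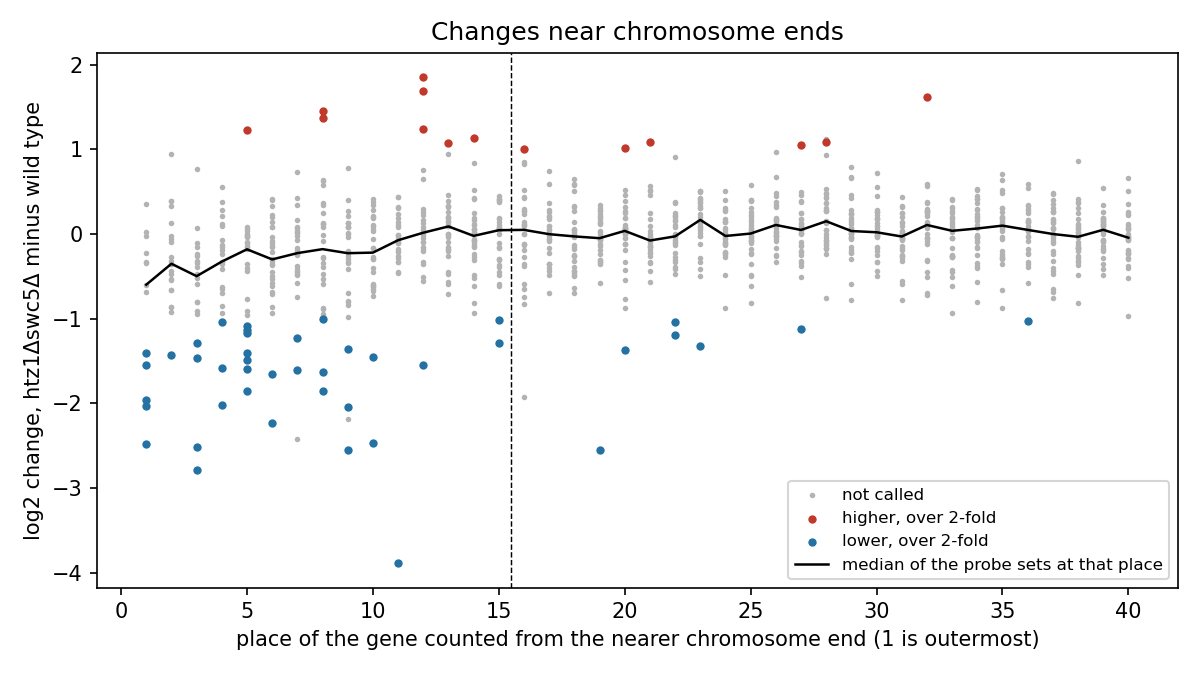
Log2 change between htz1Δswc5Δ and wild type (vertical axis) of each probe set against the place of its gene counted from the nearer chromosome end (horizontal axis), over the first 40 places; blue and red points were called at 2-fold, the line is the median at each place, and the dashed line marks place 15. Of the blue points within place 15, 20 of 36 lie in the outermost 5 places, and the median line is below 0 there and near 0 beyond place 15. The grey points below -1 varied between cultures and did not pass the test.

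The nearest genes on either side of the 3 deletions were also examined. Next to HTZ1, HRD1, a ubiquitin ligase of the endoplasmic reticulum, fell from 10.15, 10.26 and 10.14 to 9.30, 9.41 and 9.55 (log2 change -0.76, adjusted p = 5.3e-06), while PLB3 on the other side changed by 0.04. Beside SWC5, PBP2 rose by 0.62 and ROT2 fell by 0.69. Beside LYS2, the transketolase gene TKL2 rose from 8.12, 7.12 and 7.26 to 8.59, 8.74 and 8.16 (log2 change 1.00, adjusted p = 0.013) and CYC8 by 0.30. The other 7 of the 12 neighbours did not pass the test. In htz1Δ, which has the same HTZ1 deletion, HRD1 read 9.70, 9.85 and 9.69. In that strain, which keeps SWC5, PBP2 read 8.85, 8.81 and 8.69 and ROT2 read 10.55, 10.42 and 10.63. The wild type read 7.97, 7.81 and 7.98 for PBP2 and 11.41, 11.50 and 11.54 for ROT2. Both genes thus differed from the wild type in the same direction with SWC5 present. The cause was not tested.

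Compared directly with htz1Δ, htz1Δswc5Δ had 60 probe sets higher (1.09%) and 65 lower (1.18%) by more than 2-fold. The extremes were the marker genes: BAR1, deleted in htz1Δ, was at least 239-fold higher, and LYS2 and SWC5 were lower. Some of the rest belonged to the gene lists. All 7 arginine synthesis genes were lower in htz1Δswc5Δ, 6 of them by more than 2-fold, and 7 of 8 lysine synthesis genes, 5 of them by more than 2-fold, where 16.6% of all probe sets were lower at any fold. ARG3 read 12.22, 13.07 and 12.36 in htz1Δ and 9.01, 8.61 and 9.14 in htz1Δswc5Δ, where the wild type read 8.46, 8.89 and 9.67 (log2 change against htz1Δ -3.63, adjusted p = 4.3e-05). LYS1, saccharopine dehydrogenase, read 10.32, 12.02 and 12.69 in htz1Δ and 8.82, 9.19 and 8.73 in htz1Δswc5Δ, close to the wild type at 9.06, 8.93 and 8.77. RTC2, a vacuolar transporter of basic amino acids, read 7.77, 10.84 and 11.06 against 6.50, 7.08 and 6.50. The htz1Δ cultures thus spread widely for RTC2 and LYS1, with replicate 1 the lowest. The lysine genes were compared between a strain that has LYS2 and one that lacks it.

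Iron, mating and respiration genes also differed from htz1Δ. Of the 24 iron genes 16 were higher in htz1Δswc5Δ, 11 by more than 2-fold, where 19.2% of all probe sets were higher at any fold. ARN2 read 8.56, 8.52 and 8.37 in htz1Δ and 11.36, 11.76 and 11.85 in htz1Δswc5Δ, with the wild type in between at 10.77, 10.35 and 10.17 (log2 change 3.17, adjusted p = 8.5e-05). FRE5 and FIT2 were higher by 2.96 and 2.94. Of 20 pheromone response genes 16 were lower and none higher: FUS1 read 10.97, 11.01 and 11.02 in htz1Δ against 9.43, 9.95 and 9.68, and its wild-type range lay with htz1Δswc5Δ. The htz1Δ strain lacks BAR1 and the other strains do not, so the pheromone difference and that marker cannot be told apart. Of 36 respiratory chain genes 32 were lower (median -0.50) and of 50 ribosome biogenesis genes 40 were higher (median 0.37). Of all probe sets 16.6% were lower and 19.2% higher at any fold.

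Several genes called against the wild type did not pass against htz1Δ, in a comparison that shares the htz1Δswc5Δ arrays with the one against wild type. Here RRT15 differed by 0.60 (adjusted p = 0.055), ADA2 by -0.43 (0.14), STE3 by -0.30 (0.4) and PHO84 by 0.42 (0.63). Of the 17 phosphate genes 3 were higher and 2 lower, where 19.2% of all probe sets were higher and 16.6% lower. The mean level of the list in htz1Δ was 8.43, 8.45 and 8.37, where htz1Δswc5Δ had 8.43, 8.34 and 8.54. A p above the threshold does not show that the strains are alike, and the 95% interval for PHO84 against htz1Δ ran from -0.94 to 1.77. SSP1 lay below the background limit on all 3 htz1Δ arrays and is not compared between these strains.

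**Figure D5:**
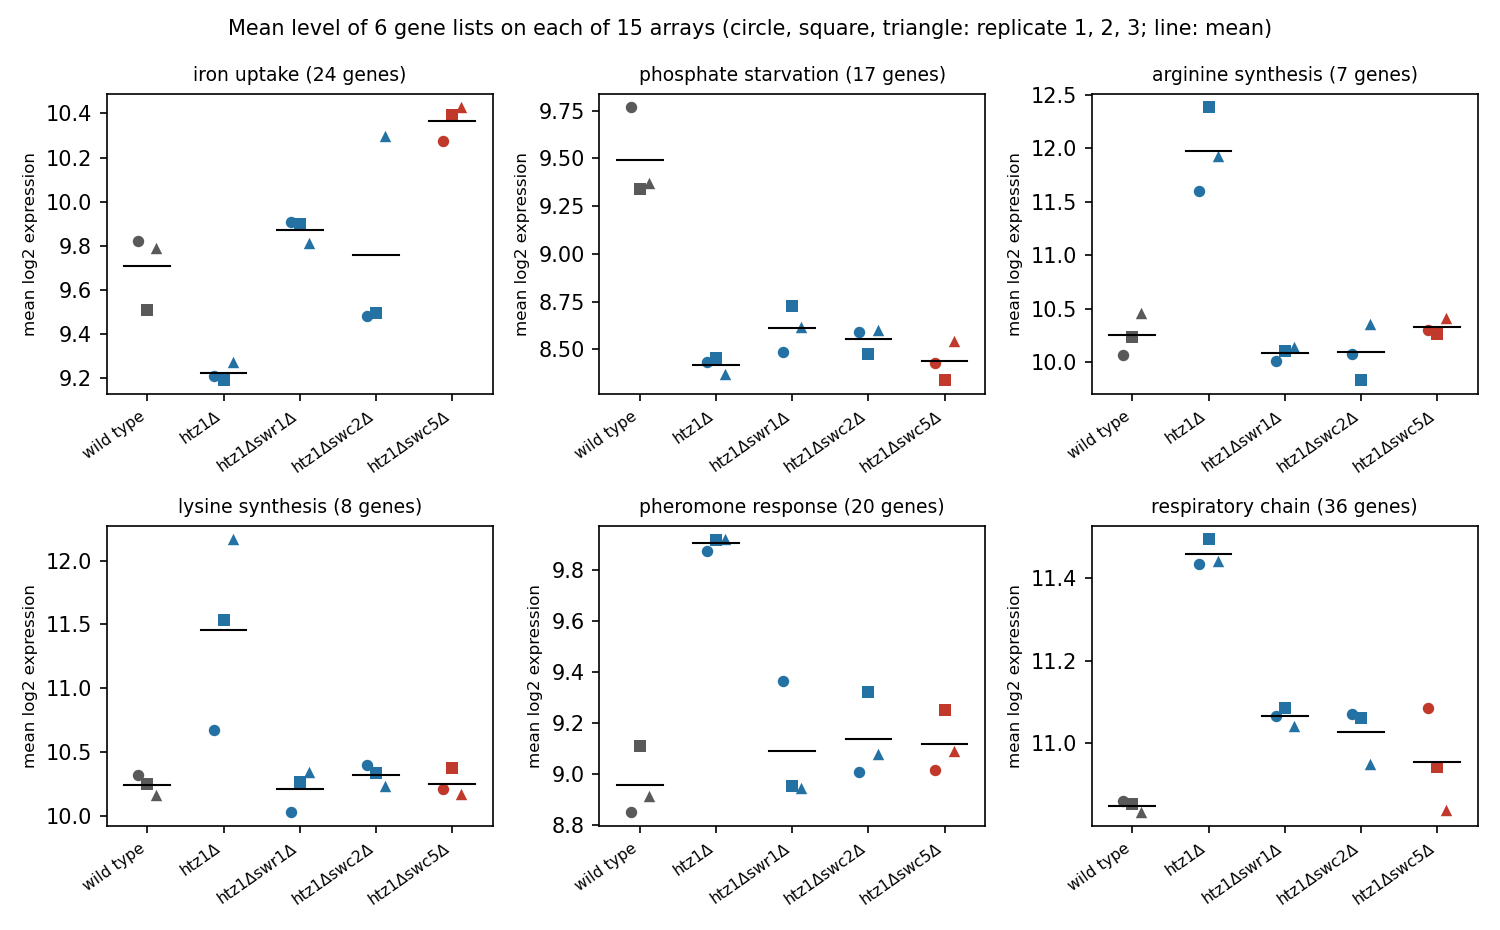
Mean log2 expression of 6 gene lists (vertical axes, each with its own range) on each of the 15 arrays in 5 strains; circles, squares and triangles are replicates 1, 2 and 3 and the line is the mean of 3. For arginine, lysine and pheromone genes htz1Δ stands above the other 4 strains, for phosphate genes the wild type stands above the 4 mutants, and for iron genes htz1Δswc5Δ and replicate 3 of htz1Δswc2Δ are highest.

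Against htz1Δswr1Δ, 17 probe sets were higher (0.309%) and 12 lower (0.218%). The counts leaned on single arrays: 28 were higher without htz1Δswr1Δ replicate 1, 7 without its replicate 3, and 8 were lower without its replicate 2. After quantile normalization 11 were higher. SWR1, deleted in that strain, was at least 82.8-fold higher in htz1Δswc5Δ, and LYS2 and SWC5 were lower. Past the deleted genes, RRT5 was higher by 1.56, SPO19 by 1.5 and PCK1, the gluconeogenic enzyme, by 1.34, each with wide spread: PCK1 read 5.96, 8.27 and 6.59 in htz1Δswc5Δ against 5.59, 5.64 and 5.55. RRT5, SPO19, PCK1 and COS12 each lost the call in at least 3 of the 6 fits that left out 1 array. ADA2 was lower by 1.13, at 8.48, 8.36 and 7.63 against 9.41, 9.28 and 9.16 in htz1Δswr1Δ, so that its rise over the wild type was smaller here than in htz1Δswr1Δ (adjusted p = 0.004). BDF2, a bromodomain protein related to Bdf1, read 10.70, 10.78 and 11.05 against 10.04, 9.56 and 9.59 (log2 change 1.11, adjusted p = 0.00023), and the helicase gene DED1 read 10.88, 10.89 and 11.08 against 12.05, 11.97 and 12.02 (log2 change -1.06, adjusted p = 3.7e-05). For BDF2 and DED1, which were picked out after their values were seen, the strains were far apart and the spread small. Of the 24 iron genes 7 were higher and none lower (12.3% of all probe sets were higher at any fold), FIT1 among them at 1.01. Of 43 meiosis genes 14 were higher and none lower, and of 8 COS genes 5 were lower, 2 by more than 2-fold, where 8.66% of all probe sets were lower.

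Against htz1Δswc2Δ, 3 probe sets passed at 2-fold, and each was a gene deleted in 1 of the 2 strains: VPS72 was higher (0.0182%), and SWC5 and LYS2 were lower (0.0364%). VPS72 read 3.91, 4.66 and 4.22 in htz1Δswc2Δ and 9.07, 9.13 and 9.04 in htz1Δswc5Δ. At any fold 3 were higher (0.0546%) and 4 lower (0.0728%). VPS60, the neighbour of VPS72, differed by 0.64, and the asparaginase gene ASP3-1, which has near-identical copies, by 0.42. The decapping subunit gene DCP1 differed by -0.33 and MET16, of sulfate assimilation, by -0.67. The number at an unadjusted p under 0.05 was 425, and the median size of the difference was 0.07 log2 units, where it was 0.19 against the wild type. The fit did not pair arrays by replicate number, although the phospholipid genes followed that number in both strains, as given under other observations. Spread that follows the number thus stays in the SE, and few calls do not show that the strains are alike.

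This near match changed without htz1Δswc2Δ replicate 3, whose iron genes lay with htz1Δswc5Δ. That array is named for its high iron genes, so calls of those genes without it are not a separate test. Without that array, 17 probe sets were higher in htz1Δswc5Δ and 6 lower. Among the 17 were the iron genes FRE5, ARN2, TIS11, FIT1, FIT2, FIT3, ARN1, ENB1, SIT1 and FRE3, and the multidrug genes CIS1, RSB1 and PDR15. TIS11 read 8.52, 8.31 and 10.27 in htz1Δswc2Δ and 10.27, 10.35 and 10.16 in htz1Δswc5Δ. CIS1 read 7.33, 7.63 and 9.80 against 9.36, 9.48 and 9.49. In both genes replicate 3 of htz1Δswc2Δ was at the level of htz1Δswc5Δ and the other 2 were at that of the wild type. The sulfate genes MET3, MET14 and SUL2 and the peptide transporter gene OPT2 were the lower ones beside SWC5 and LYS2. With all arrays none of the 24 iron genes passed against htz1Δswc2Δ, and their median difference was 0.45.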

How the data were processed

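RNA of 3 cultures per strain was hybridized by the authors to Affymetrix Yeast Genome 2.0 arrays, whose probe sets lie near transcript 3′ ends. Values were deposited as log2 expression after RMA, which corrects background, quantile-normalizes and summarizes probes (the submitters' processing notes name GCOS, RMA and limma). Which arrays were normalized together was not given in the sources used here. The 15 arrays used shared 1 level; arrays of the single mutants swr1Δ, swc2Δ and swc5Δ had other medians and were not compared. RMA fixes each array's distribution, so changes are relative to the other RNAs of an array. Array number (3 per strain) limits the precision.

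Probe sets were named through the platform annotation and RefSeq (assembly R64, used for names and gene order). Of 10928, 5498 had 1 gene (5449 genes); 3683 with no gene listed, 1746 of another species or not in the reference and 1 with several genes were left out. Of 47 genes with over 1 probe set, 46 agreed in their call. limma 3.58.1 (R 4.3.3) fitted 1 mean per strain over 15 arrays with eBayes (10 residual degrees of freedom), p-values were adjusted by Benjamini-Hochberg over 5498, and a call needed an adjusted p under 0.05 and over 2-fold. The fit was tested on simulated data. Where all 3 arrays of a strain were below 3.74, the fold is a lower bound against that level. Log2 changes are fitted differences, with SE or 95% intervals from the fit. Named genes were the 12 highest and lowest called changes, 4 each way in direct comparisons, up to 4 called members per list, and 2 genes each side of a deletion. Other genes named were picked out after their values were seen. Gene lists give counts and medians, without set tests. The members and lists were chosen with earlier results of these data known. The comparisons share the htz1Δswc5Δ arrays. Alternatives were other array sets, scalings, filters, a replicate block, and leaving out each array.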

Additional observations from a re-analysis of the deposited data

Results flagged for a closer look

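Of the 3683 probe sets for which the annotation lists no gene, 39 (1.06%) passed the adjusted p threshold and 2-fold between htz1Δswc5Δ and wild type in a fit over all probe sets, 29 of them higher and 10 lower. They stood outside the tested genes, and 536 of the 3683 had a mean level above the background limit. Of the 1746 probe sets for another species or for genes not in the reference, 0 were called.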

How the results depend on the processing

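Quantile normalization of the 15 arrays gave 54 genes up and 65 down at 2-fold against wild type (up-regulated share 45.4% in place of 32.2%; 29.7% with arrays centred on their medians) and 11 up against htz1Δswr1Δ. Over all probe sets of the array, 67 were up against wild type and 28 against htz1Δswr1Δ. Leaving out the dimmest 25% of probe sets left fewer to test: 22 up and 7 down against wild type (117 and 115 at 1.5-fold), 24 and 42 against htz1Δ, 2 and 4 against htz1Δswr1Δ, and 0 and 1 against htz1Δswc2Δ, with 3 down near chromosome ends and 4 elsewhere; for phosphate genes 6 of 9 still fell and for iron genes 11 of 18 rose. Leaving out 1 array gave 25 to 45 up and 71 to 94 down against wild type (141 to 203 and 265 to 372 at 1.5-fold), 33 to 42 down near chromosome ends and 38 to 54 elsewhere, 57 to 77 and 52 to 69 against htz1Δ, 7 to 28 and 8 to 16 against htz1Δswr1Δ, and 1 to 17 and 2 to 6 against htz1Δswc2Δ. The 25 came without htz1Δswc5Δ replicate 2, and 22 of them were among the 39. The cause of these shifts was not tested.

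The replicate numbers were not taken as pairs: deviations of wild-type and htz1Δswc5Δ arrays of number 1, 2 and 3 correlated at 0.10, 0.0061 and 0.19, not all above 0.1. These correlations do not cover htz1Δswc2Δ, where some gene lists followed the replicate number as in htz1Δswc5Δ. With the replicate block, 41 were up and 82 down against wild type, including all 39 and all 82. Fitting all 24 arrays or only the strains compared gave 37 up and 82 down each. None of these settings turned a direction. Signal over background limits genes below a level of about 3.74, where only a bound can be given, and with 3 arrays per strain the median SE of a change was 0.0859.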

Other observations

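Among the genes that did not pass the test, the largest changes against wild type were those of VEL1, YOR387C and ZPS1, genes of the zinc shortage response, of which VEL1 and YOR387C are near-identical in sequence. ZPS1 read 13.20, 13.33 and 13.52 in the wild type and 13.51, 8.5 and 12.27 in htz1Δswc5Δ, a change of -1.92 with a 95% interval from -4.19 to 0.34. VEL1 read 8.33, 8.76 and 7.77 against 8.58, 3.98 and 5.04, a change of -2.42 (95% interval -5.34 to 0.51). Mutant replicate 1 was at the level of the wild type for both genes and replicate 2 was the lowest, which is also the order of INO1 given above.

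The 16 phospholipid genes were lowest on replicate 2 in both htz1Δswc5Δ and htz1Δswc2Δ, with mean levels of 11.10, 10.37 and 10.81 in htz1Δswc5Δ and 11.10, 10.49 and 10.83 in htz1Δswc2Δ, while the wild-type arrays lay at 11.15, 11.23 and 11.26. The general stress genes were highest on the same number, at 10.74, 10.94 and 10.36 in htz1Δswc5Δ and 10.62, 10.96 and 10.43 in htz1Δswc2Δ. Whether arrays with equal numbers were grown together is not given in the sources used here.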
